A study of Trametes pubescens and Hermanssonia centrifuga with 16 samples.

Results

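The comparison is of gene expression in Trametes pubescens after growth on wheat straw at 25 °C, the warmer culture, against 15 °C, the cooler one. Its members are 4 of the 16 libraries of the study, chosen by their titles: 2 libraries at 25 °C and 2 at 15 °C, all from mycelium of strain FBCC735. Messenger RNA was sequenced after 21 days of solid culture on 2 g (dry weight) of straw pieces at a moisture content of 60%. Both temperatures shared the strain, the straw and, per the protocol text, a liquid preculture at 25 °C, so the mycelium grown at 15 °C had been kept warmer beforehand. The titles and treatment labels give 2 culture temperatures, while the protocol text gives only 25 °C for the solid cultures, and the groups follow the titles. The other libraries of the study come from spruce cultures and from a second fungus; the 4 spruce libraries of T. pubescens entered the fit for their spread between replicates, and their levels are not compared here. Nothing in the labels shows that the replicates were grown as separate cultures. The p-values of the fits below weigh a difference against the spread between replicate libraries. That spread is drawn from all 8 T. pubescens libraries unless stated otherwise, and it may be technical. The permutation p-values only rank the observed split among all splits of the 4 straw libraries.

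T. pubescens is a white-rot fungus, one of the basidiomycetes that break down lignin together with cellulose and hemicelluloses. It does so with secreted enzymes, among them laccases, which oxidise phenols with oxygen and for which this species is a known source, peroxidases, and hydrolases that cut cell wall polysaccharides. Wheat straw is a grass material with arabinoxylan as its main hemicellulose. Growth temperature is known in fungi to affect membrane lipids, chaperones, and the pace of growth and of enzyme secretion. The files list gene models by identifier and do not pair them with names, and no annotation was used, so which of these functions a model below has is not known here. An identifier holds a gene number, a scaffold number and, after the point, a model number. That number was read as the order of models along the scaffold, which could not be checked without an annotation, so neighbours below are models with consecutive numbers.

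The 4 libraries held 10422148 and 11266387 counts at 25 °C, and 11694526 and 10881739 at 15 °C, with 12295 to 12327 of 14451 gene models seen at least once. After removal of models with too few counts, 11622 were tested, and they held 99.97% or more of each library. Levels are given as CPM, counts relative to the library total times its TMM factor (1.07 to 1.13 in these libraries), and describe one model across libraries; model lengths were not used, so levels of different models are not set against each other. The second library at 25 °C stood farthest from the rest. Over the 11622 tested models, the Euclidean distance of log2 CPM was 54.5 between the 2 libraries at 25 °C and 45.4 between those at 15 °C. Across temperatures the distances were 49.4 and 53.2 from the first library at 25 °C, and 53.0 and 64.5 from the second, each to the first and second library at 15 °C. By these distances the libraries did not fall into 2 separate groups by temperature: the first library at 25 °C lay nearer to both libraries at 15 °C than to its own replicate.

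Of the 11622 models, 3 were called at an adjusted p below 0.05, which is 0.0258% of those tested; 2 rose at 25 °C and 1 fell. The rises were 10.3-fold and 4.81-fold and the fall was 14.6-fold. In RNA from whole mycelium, fewer cells that express a gene and less RNA per cell cannot be told apart. The test was edgeR's quasi-likelihood F test with Benjamini-Hochberg adjustment over all tested models. The count depends on each straw library, and leaving 1 out also leaves a single library at its temperature. Without the first library at 25 °C edgeR called 0 models and 826 had an unadjusted p below 0.05, and without the second it called 1, with 520 at that p. Without the first or second library at 15 °C it called 0 each time, with 616 and 387.

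Model jgi|Trapub1|11106|scaffold_509.14 stood at 1252 and 1008 CPM in the 2 libraries at 25 °C, against 108.3 and 112.2 CPM at 15 °C. Both warm libraries were high, and the lower of them was 8.98 times the higher of the cool ones. The means were 1130.0 ± 173 CPM at 25 °C and 110.2 ± 2.78 CPM at 15 °C (SD, n = 2 each), and the log2 fold change was 3.36 ± 0.28 (SE; edgeR adjusted p = 0.00633). These values rest on 27244 counts at 25 °C and 2721 at 15 °C. The 6 tested models numbered within 3 of it on scaffold 509 had log2 fold changes between -0.29 and 0.23, and 0 of them had an unadjusted p below 0.05. Of the 40 other models tested on that scaffold, 1 did. Its log2 fold change lay between 3.19 and 3.51 over the alternatives tried, and the adjusted p was 0.0469 without the second library at 25 °C, 0.0864 without the first, and 0.116 and 0.134 without the first and second at 15 °C.

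Model jgi|Trapub1|11189|scaffold_520.7 stood at 208.8 and 175 CPM at 25 °C, against 37.75 and 42.05 CPM at 15 °C. Groups that do not overlap were a condition for naming a model, and here the gap between the nearest libraries was 4.16-fold. It averaged 191.9 ± 23.9 CPM at 25 °C and 39.9 ± 3.04 CPM at 15 °C (SD, n = 2 each), a log2 fold change of 2.27 ± 0.21 (edgeR adjusted p = 0.00942). The 6 neighbours tested within 3 models had log2 fold changes from -0.49 to 0.72, and again 0 had an unadjusted p below 0.05. The call was lost without any 1 of the 4 straw libraries, a fit with a single library at that temperature. It was also lost without the first spruce library at 15 °C (edgeR adjusted p = 0.0529). The log2 fold change of this model lay between 2.13 and 2.39 over the alternatives tried.

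Model jgi|Trapub1|2738|scaffold_1325.57 was near its detection limit at 25 °C. It had 9 and 17 counts there, against 170 and 218 counts at 15 °C, which is 0.764 and 1.37 CPM at 25 °C and 13.0 and 18.7 CPM at 15 °C. Both warm libraries were low, and the lower cool library was 9.52 times the higher warm one. The means were 1.07 ± 0.43 CPM at 25 °C and 15.9 ± 3.98 CPM at 15 °C (SD, n = 2 each), and the log2 fold change was -3.87 ± 0.39 (edgeR adjusted p = 0.0120). With 26 counts in all at 25 °C, the level there is known less exactly than for the models above. The 2 tested models numbered within 3 of it had log2 fold changes of -0.96 (unadjusted p = 0.0190, edgeR adjusted p = 0.574) and -0.29 (unadjusted p = 0.398). Of the 45 other models tested on that scaffold, 2 had an unadjusted p below 0.05. This call was lost without any 1 straw library, a fit with a single library at that temperature. It was also lost without the first spruce library at 15 °C (edgeR adjusted p = 0.0598). The log2 fold change of this model lay between -4.35 and -3.52 over the alternatives tried.

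**Figure D1:**
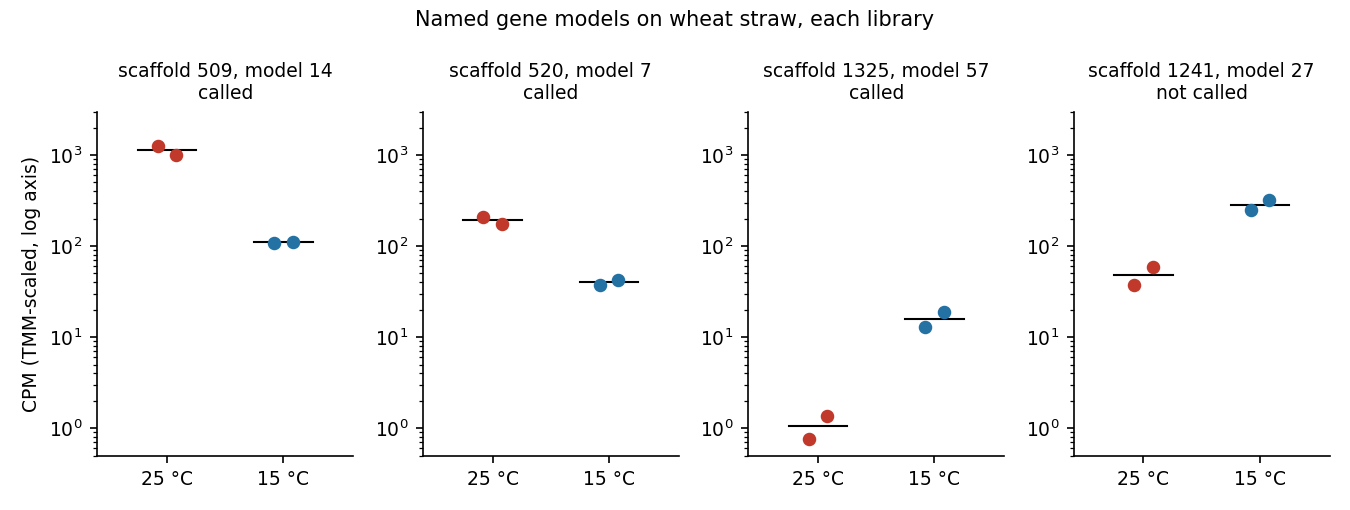
CPM of 4 gene models (log axis) in each straw library at 25 °C (red, left) and 15 °C (blue, right); points are single libraries and the line is the mean of the 2. Only models whose groups do not overlap could be chosen for the panels. The first 3 models were called in the main edgeR fit and the fourth, at an adjusted p of 0.0536, was not.

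A group of models with nearly equal adjusted p-values lay just past the threshold, though their unadjusted p-values were not nearly equal. A further 15 models had an adjusted p between 0.0536 and 0.0558, of which 3 were higher and 12 lower at 25 °C, with log2 fold changes between 1.42 and 2.80 in size. The first of them by p-value was jgi|Trapub1|2083|scaffold_1241.27, which stood at 37.2 and 59.6 CPM at 25 °C, against 245.7 and 319.5 CPM at 15 °C. Its means were 48.4 ± 15.8 CPM at 25 °C and 282.6 ± 52.2 CPM at 15 °C (SD, n = 2 each), and its log2 fold change was -2.55 ± 0.33 (edgeR adjusted p = 0.0536). Of the 6 tested models numbered within 3 of it, 2 had an unadjusted p below 0.05 and opposite directions. Their log2 fold changes were -1.49 and 0.99 (edgeR unadjusted p = 0.0036 and 0.00994). Of the 58 other models tested on scaffold 1241, 6 had such a p. Among the 15, the model with the most counts had 337 and 609 CPM at 25 °C, against 2646 and 3404 CPM at 15 °C (log2 fold change -2.68 ± 0.39, edgeR adjusted p = 0.0536). None of these 15 passed in the main edgeR fit of all 8 libraries. DESeq2 on the same libraries called all 15, and edgeR on the 4 straw libraries alone called 10. The named one had an adjusted p of 0.0233 in a fit of the 4 straw libraries alone, of 0.0409 without a filter on low counts, and between 0.00209 and 0.307 with 1 library left out. A further 7 models had an adjusted p between 0.06 and 0.1, and every other model had a higher one.

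Below the level of single calls, more models were lower than higher at 25 °C, by an amount that varied with the libraries used. An unadjusted p below 0.05 was found for 758 models, 6.52% of those tested: 282 higher at 25 °C, 2.43% of those tested, and 476 lower, or 4.10%. Unchanged models alone would give a share of about 0.05 at this threshold, split over the 2 directions. The 758 are thus not much above that share, and many of them can be unchanged models. In median, the log2 fold change was 0.87 among the higher ones, -0.93 among the lower ones and 0.01 over all tested models. Of the 758, 104 were at least 2-fold higher and 214 at least 2-fold lower at 25 °C, and 15 and 19 at least 4-fold. The 2 libraries at 25 °C differed by 2-fold or more from each other in 52 of the 758, and those at 15 °C in 27. With libraries scaled by their totals alone, 296 were higher and 396 lower. Without the first library at 25 °C, 384 were higher and 442 lower, and without the second, 215 and 305. Without the first library at 15 °C the numbers were 166 and 450, and without the second, 166 and 221.

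**Figure D2:**
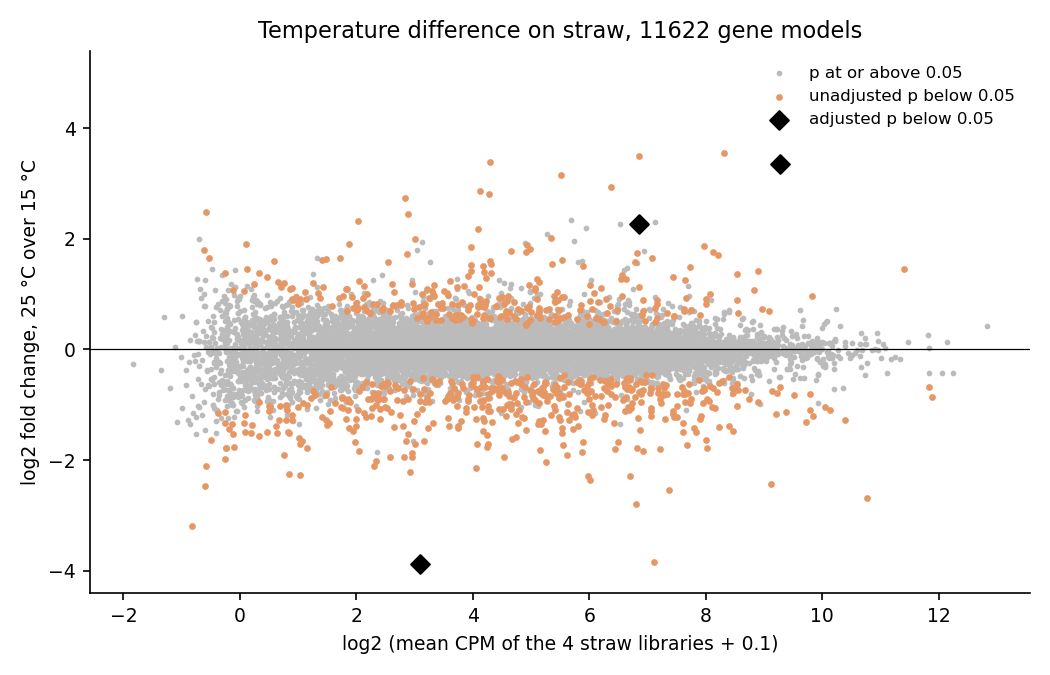
Log2 fold change of 25 °C over 15 °C against the log2 of the mean CPM over the 4 straw libraries, 1 point for each of 11622 gene models. Diamonds are the 3 called models, orange points the others with an unadjusted p below 0.05 (282 higher and 476 lower, the called ones included in these numbers), and grey points the rest.

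The difference between temperatures was set against that between replicates. The median absolute difference of log2 CPM between the means of the 2 temperatures was 0.178. Between the 2 libraries at 25 °C it was 0.278, and between the 2 at 15 °C it was 0.250; a difference of means of 2 is less noisy than that of single libraries. The variance of the temperature difference across models was 0.155, and the replicate differences alone would give 0.108, or 69.7% of it. In sums of squares over the 4 libraries, 41.7% lay between the temperatures, 34.4% between the libraries at 25 °C and 23.9% between those at 15 °C. Each share has a single degree of freedom, so equal noise in all libraries and no temperature difference would give equal shares on average. The first principal component, with 49.1% of the variation, placed the libraries at -1.94 and -34.7 for 25 °C, and at 7.36 and 29.3 for 15 °C. The temperatures did not overlap on this component, though the first library at 25 °C lay nearer to the first at 15 °C than to its own replicate. The second component, with 30.3%, set the first library at 25 °C, at 31.2, apart from the second at -11.0 and from those at 15 °C, at -12.4 and -7.80. With 2 libraries against 2, an exact two-sided permutation test of any single value cannot give a p below 0.333.

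Single pairs of libraries were compared model by model. Between the temperatures, 447 and 631 models differed by 2-fold or more when the first library at 25 °C was set against the first and second at 15 °C, and 628 and 946 when the second library at 25 °C was. Of the 447, 211 were higher and 236 lower at 25 °C, and of the 631, 203 and 428. Of the 628, 327 were higher and 301 lower, and of the 946, 436 and 510. Lower models were in the majority in 3 of the 4 pairs, and the pair of the second library at 25 °C with the first at 15 °C went the other way. The 2 libraries at 25 °C differed by 2-fold or more in 541 models, 404 of them higher in the second, and those at 15 °C in 285. The replicate pair at 25 °C differed in more models than 1 of the 4 pairs across temperatures did. The share of counts that would have to move between models to turn one library into the other was 10.5%, 10.9%, 9.34% and 14.2% for the pairs across temperatures in the same order. It was 10.7% between the libraries at 25 °C and 9.57% between those at 15 °C.

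**Figure D3:**
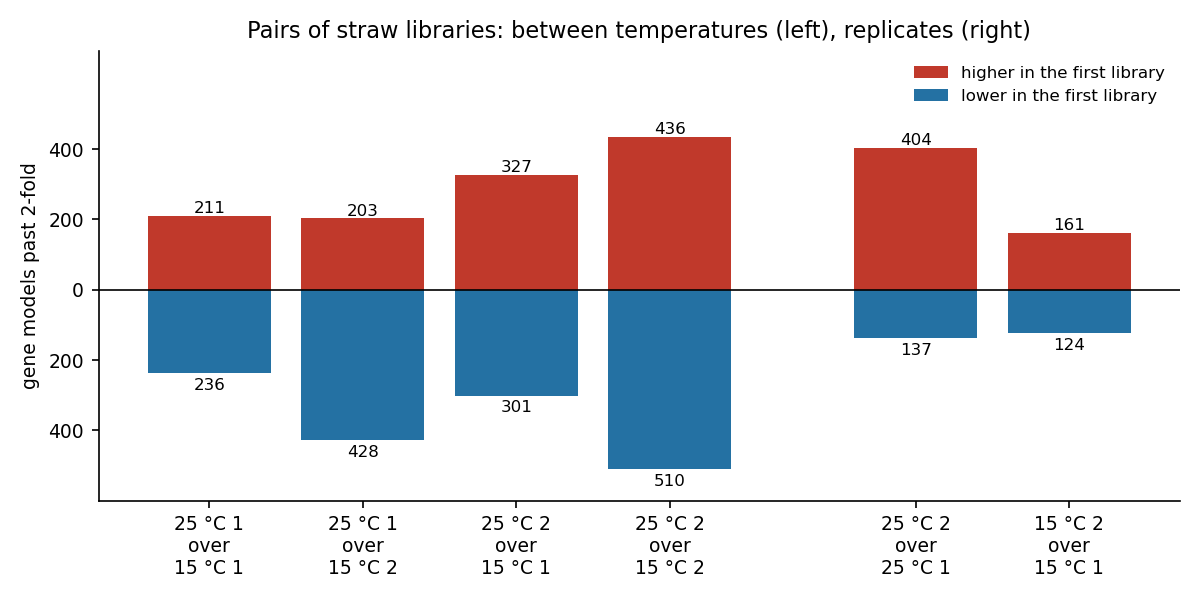
Number of gene models that differed by 2-fold or more in log2 CPM between 2 straw libraries, higher (red, up) or lower (blue, down) in the library named first. The 4 pairs on the left set 25 °C over 15 °C and the 2 on the right set a replicate over its fellow; the pair of the second libraries has the most models, 946, and the pair at 15 °C the fewest, 285.

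Models that differed by 2-fold or more whichever libraries were set against each other were fewer, and most of them were lower at 25 °C. Between the means of the temperatures, 339 models (2.92%) differed by 2-fold or more, 122 higher and 217 lower at 25 °C. With a single library standing for 25 °C, the count was 613 (279 higher, 334 lower) without the first and 411 (149 and 262) without the second. With a single library for 15 °C, it was 559 (191 and 368) without the first and 387 (187 and 200) without the second. In all 4 pairs across temperatures, 22 models were at least 2-fold higher and 80 at least 2-fold lower at 25 °C, and 4 and 5 models at least 4-fold. The libraries of the temperatures did not overlap in 3862 models, 33.2% of those tested. With 2 libraries a side this count shows no temperature difference by itself, and it is given as the background for the other counts.

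The agreement between differences that share no library depended on how the libraries were matched. Across the 11622 models, which share their libraries and are not independent replicates, the difference between the first libraries and that between the second libraries had a Pearson r of 0.0961. With the first library at 25 °C set over the second at 15 °C, and the second at 25 °C over the first at 15 °C, r was 0.279. In the first matching, 139 models passed 2-fold in the same direction in both pairs, 36 higher and 103 lower at 25 °C. That is 31.1% of the 447 and 14.7% of the 946. In the second matching, 159 did, 41 higher and 118 lower, or 25.2% of the 631 and 25.3% of the 628. Models past 2-fold in opposite directions numbered 21 and 25.

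Models lower at 25 °C outnumbered those higher in each class of read count. Among 2079 models with a mean of 100 to 1000 CPM over the 4 libraries, 43 were higher and 111 lower at 25 °C at an unadjusted p below 0.05. Among 6201 models of 10 to 100 CPM the numbers were 149 and 213, and among 2911 models of 1 to 10 CPM they were 81 and 129. Above 1000 CPM, 1 of 83 models was higher and 6 were lower, and under 1 CPM, 8 of 348 were higher and 17 lower. These are counts of models and the difference between the classes was not tested. Of the 3 called models, 2 had a mean of 100 to 1000 CPM and 1 of 1 to 10 CPM. The share of models with an unadjusted p below 0.05 was 7.18% under 1 CPM, 7.21%, 5.84% and 7.41% in the next 3 classes and 8.43% above 1000 CPM. The median absolute temperature difference of log2 CPM was 0.406 under 1 CPM, 0.271 from 1 to 10, 0.156 from 10 to 100 and 0.141 from 100 to 1000 CPM. The replicate differences at 25 °C were higher in each of these classes, at 0.470, 0.357, 0.255 and 0.253. These are differences of single libraries, which are noisier than a difference of means of 2, so the order follows in part from the measures.

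Few models were near 0 at one temperature and clearly present at the other. With a limit of at least 10 counts in each library of one temperature and at most 1 in each of the other, 0 models were seen at 25 °C alone. A single model was seen at 15 °C alone, with 1 and 1 counts at 25 °C, against 11 and 10 counts at 15 °C (edgeR adjusted p = 0.175). The share of counts held by the models with the most counts was slightly lower at 25 °C in the means, and 4 libraries are too few for a test to pass 0.05. The 10 models with the most counts took 4.65% ± 0.12 of a library at 25 °C and 4.88% ± 0.27 at 15 °C (SD, n = 2 each; exact two-sided permutation p = 0.667). The 100 models with the most counts took 17.99% ± 0.09 at 25 °C and 18.6% ± 0.52 at 15 °C, with 18.05% and 17.93% in the libraries at 25 °C, below both of those at 15 °C, at 18.25% and 18.98% (exact permutation p = 0.333, the smallest possible).

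Some of the models with an unadjusted p below 0.05 had consecutive numbers. Runs of at least 3 consecutively numbered models on 1 scaffold, each with such a p and the same direction, numbered 13. They held 42 of the 758 models at that p, and 11 runs were lower and 2 higher at 25 °C. By the same rule, 596 models stood alone and 60 runs held 2 models. Of the 758, 476 were lower, so the majority of lower runs follows in part from that share. The runs were found by these p-values, so the values below describe them and test nothing. The longest was on scaffold 895, where the 5 models with the lowest numbers had log2 fold changes between -1.43 and -0.77. Their summed level was 599 and 517.6 CPM at 25 °C, against 940.7 and 1439 CPM at 15 °C. Their adjusted p-values from edgeR lay between 0.0858 and 0.622, so edgeR called 0 of the 5 while DESeq2 called 3. The next 2 models by number were higher at 25 °C at an unadjusted p below 0.05, with log2 fold changes of 0.57 ± 0.24 and 0.85 ± 0.34. A run of 4 models on scaffold 1655 had a summed level of 324.6 and 396.8 CPM at 25 °C, against 1078 and 973.3 CPM at 15 °C, with log2 fold changes between -1.64 and -0.90. A run of 3 on scaffold 1573 held 2 of the 15 models just past the threshold; its summed level was 37.8 and 43.1 CPM at 25 °C, against 246.5 and 201.7 CPM at 15 °C. The higher runs were on scaffold 171, with 477.8 and 490.0 CPM in sum at 25 °C against 267.3 and 345.1 CPM at 15 °C, and on scaffold 1496, with 393.7 and 226.5 CPM against 95.4 and 162.6 CPM. Scaffold 171 also held a lower run, with 303.6 and 201.2 CPM at 25 °C and 494.8 and 547.7 CPM at 15 °C.

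**Figure D4:**
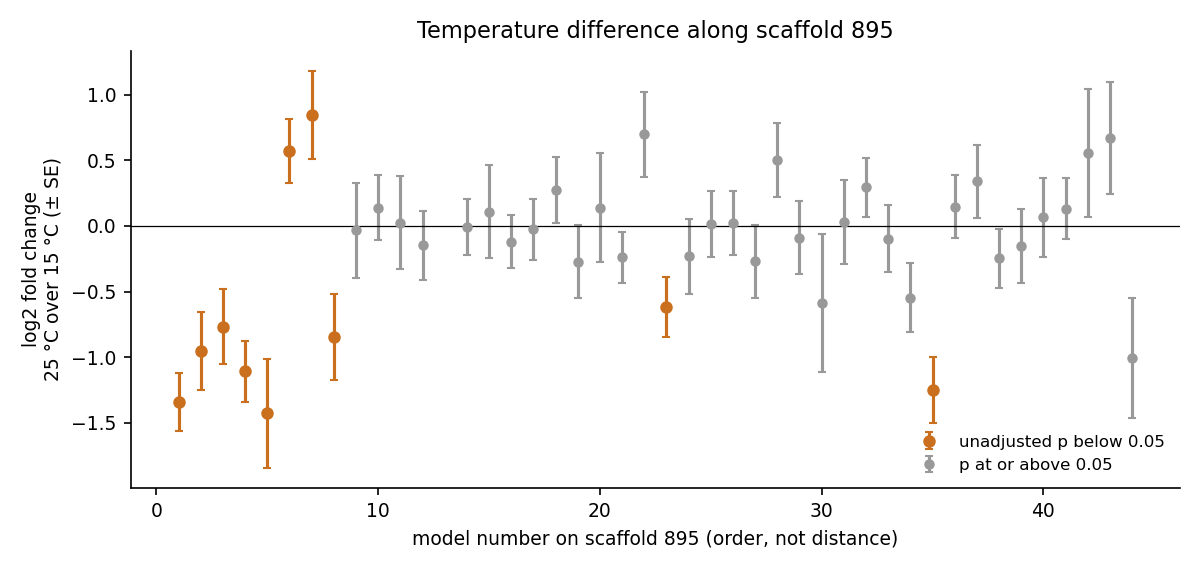
Log2 fold change of 25 °C over 15 °C (points, with SE bars) of the 43 tested models of scaffold 895 in the order of their model numbers. The 5 lowest-numbered models are all below 0 with an unadjusted p below 0.05 (orange), the next 2 are above 0, and 3 others of the scaffold also have such a p.

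The same was looked at over all models with consecutive numbers. The tested models lay on 832 scaffolds and formed 10263 pairs of consecutive numbers, of which 54.5% had a temperature difference of the same sign. The temperature differences of neighbours had a Pearson r of 0.144. The differences between replicates, which hold no temperature contrast, had an r between neighbours of 0.126 at 25 °C and 0.0902 at 15 °C, and each of these is weak. In 112 pairs both models had an unadjusted p below 0.05, of which 89 had the same direction and 23 the opposite one. Over all tested models, 6.52% had such a p. No matching count of pairs was made for the replicate differences, so whether the 112 or the 89 go beyond what neighbours share without a temperature contrast was not tested. Reads of overlapping models cannot be told apart here, since the strand setting of the counting is not given in the sources used here.

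Some other fits of the same counts called more models, and others as few or fewer. RLE scaling and scaling by library totals called 3 again, 2 higher and 1 lower. DESeq2 on the same 8 libraries called 149 of 11396 models with an adjusted p (1.31%), 34 higher and 115 lower at 25 °C; the median log2 fold change was 1.51 for the higher and -1.34 for the lower ones. Among the 149 were the 3 called by edgeR and all 15 just past its threshold. Of the 149, 20 had a mean under 10 CPM over the straw libraries. An edgeR fit of the 4 straw libraries alone called 20 of 11485 models (0.174%), 7 higher and 13 lower, which included the 3 and shared 19 with DESeq2. The spruce libraries inform the spread and not the difference. When the first of those at 25 °C was left out, edgeR called 103 models (22 higher, 81 lower), and when the second was, 51 (10 higher, 41 lower). The estimated biological coefficient of variation was then 0.190 and 0.191, against 0.222 with all 8 libraries. When the first or second of those at 15 °C was left out, it was 0.236 and 0.235 and edgeR called 1 model, higher at 25 °C, and 5 models (2 higher, 3 lower).

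**Figure D5:**
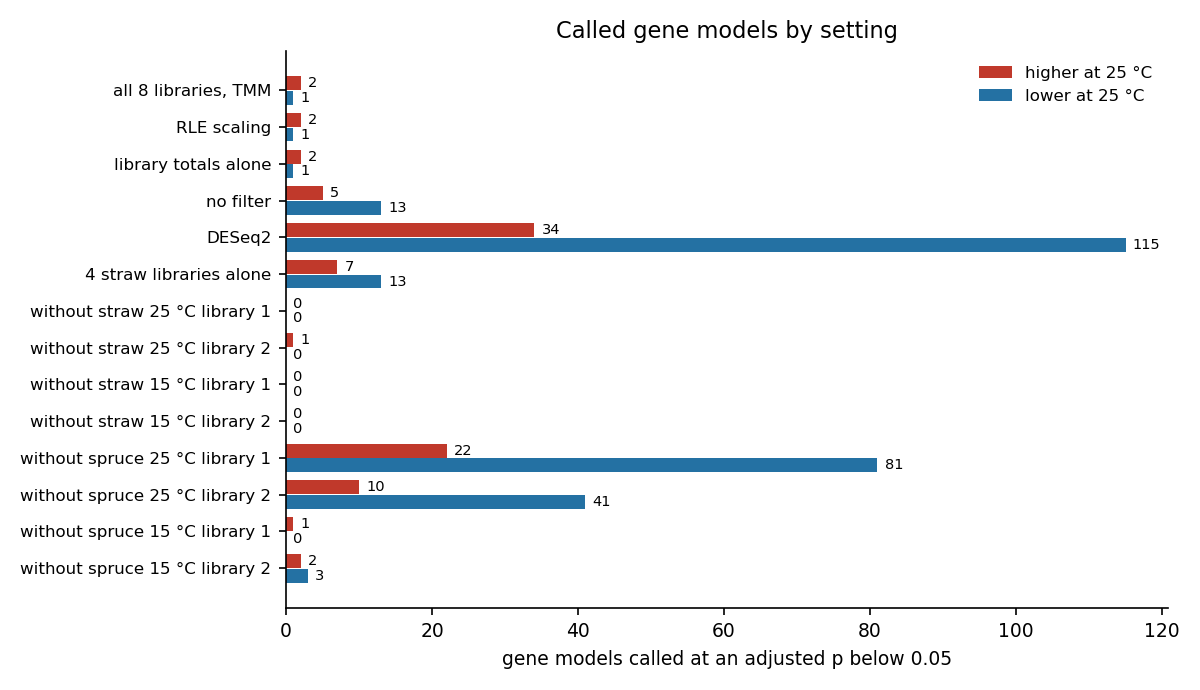
Number of gene models called at an adjusted p below 0.05, higher (red) or lower (blue) at 25 °C, under the fit of all 8 libraries and under each alternative listed at the left. With a straw library left out 0 or 1 model is called, and DESeq2 calls 149; where more than 10 models are called, more are lower than higher.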

How the data were processed

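The values the authors deposited are raw counts per gene model, in whole numbers and with no normalisation, in a file for each library. The submitters' processing notes name Trimmomatic 0.36 and STAR 2.7.10a; no genome build, annotation or strand setting is given in the sources used here. The 8 T. pubescens libraries were fitted together with edgeR 4.0.16 (R 4.3.3). Models were filtered by filterByExpr, libraries scaled by TMM (the trimmed mean of M-values), and 1 mean was fitted per group without a replicate block, with 4 residual degrees of freedom. The contrast, 25 minus 15 °C on straw, was tested by glmQLFit and glmQLFTest, with Benjamini-Hochberg adjustment over 11622 models. An SE is the size of the log2 fold change over the square root of F. CPM use TMM-scaled totals, so differences are relative to the bulk of models. Differences of log2 CPM use a prior count of 2. DESeq2 1.42.0 was an alternative; 226 models have no adjusted p there. Replicates differed beyond sampling noise (chi-square per degree of freedom 37.4 at 25 °C and 30.4 at 15 °C).

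The models named are the called ones with the largest changes, at most 2 in each direction, whose groups do not overlap and whose mean is at least 10 CPM in the higher group; a direction with fewer is filled by the lowest p-value. The comparison, the lists and the tests were chosen with earlier results of these data known. Lists of genes by function were not run, since no annotation used here pairs the identifiers with functions.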

Additional observations from a re-analysis of the deposited data

How the results depend on the processing

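The count of 3 called models was also 3 with RLE scaling and with scaling by library totals. It was 18 without a filter on low counts, 149 with DESeq2, 20 in a fit of the 4 straw libraries alone, and between 0 and 103 with 1 of the 8 libraries left out; the cause was not tested. The count at an unadjusted p below 0.05 stayed between 692 and 933 in the settings that keep all straw libraries and leave out none singly, and between 387 and 1012 with 1 library left out. The log2 fold changes of the 4 named models kept their direction in all 14 alternatives. These models were named for groups that do not overlap, which left little room for a reversal in the same counts. With a straw library left out, the median absolute temperature difference lay between 0.191 and 0.256, since a single library then stands for a group; under the other scalings, prior counts and filter it lay between 0.173 and 0.186. The r between neighbours was 0.146 with a prior count of 5 and 0.134 over models of at least 10 CPM.

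The replicate numbers are not stated to pair the libraries, and the deviations of same-numbered straw libraries had a weak negative correlation (r = -0.194 across genes). With a replicate block in the fit of 8 libraries, edgeR called 22 models (5 higher, 17 lower), and 831 had an unadjusted p below 0.05; the 3 called models were called again, and jgi|Trapub1|2083|scaffold_1241.27 passed at an adjusted p of 0.00864. Depth limits the level of the model that fell, which rests on 26 counts at 25 °C.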
